A study of Mus musculus with 13 samples.

Results

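The 4 muscle-specific basic helix-loop-helix (bHLH) transcription factors, Myod1, Myf5, Myog and Myf6, and the 3 E proteins they pair with, Tcf3, Tcf4 and Tcf12, were followed through the differentiation of mouse myoblasts. The 7 genes were taken by gene symbol from a table of 23366 genes, and all 7 passed the filter on low counts that left 16537 genes for testing. RNA from primary skeletal muscle cells of mixed strain had been sequenced in 13 libraries, after depletion of ribosomal RNA. The groups were dICR/dICR myotubes (2 libraries), wild-type (WT) myotubes (5), dICR/dICR myoblasts (2) and WT myoblasts (4). The dICR/dICR cells lacked, on both chromosomes, the imprinting control region between Igf2 and H19, which the WT cells retained. The myoblasts had been isolated from the hind limbs of pups aged 2 to 3 days, and the myotubes had spent 24 hours in 1% horse serum. Calf serum at 10% is also listed in the culture details of all 13 libraries. Nothing in the labels ties the replicates to separate animals or cultures, so p-values measure only the spread between these libraries, which may be technical.

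A muscle bHLH factor binds the short DNA motif called the E-box as a heterodimer with an E protein. Myf5 and Myod1 are known as the determination factors that give a cell its myoblast identity, Myog drives entry into terminal differentiation, and Myf6, also called MRF4, acts mostly in later muscle fibres. Id proteins lack the DNA-binding basic region and tie up the E proteins, which holds back the muscle factors while myoblasts divide.

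Total counts ranged from 5.31 to 56.44 M (mega) counts and separated into 7 deep libraries, above 20 M, and 6 shallow ones. Both dICR/dICR myotube libraries were deep and both dICR/dICR myoblast libraries shallow, whereas WT myotubes had 3 deep and 2 shallow libraries and WT myoblasts 2 of each. The labels describe sequencing on Illumina and on SOLiD instruments without saying which library was run on which, and the depth sets were defined from the totals. H19 lay between 52.4 and 71.5 CPM (counts per M counts, after TMM scaling of the totals) in the 4 dICR/dICR libraries. It was higher in all 9 WT libraries, between 2340 and 40500 CPM. Igf2 had 2630 to 8290 CPM in dICR/dICR myotubes, above the 1350 to 2550 CPM of WT myotubes. In myoblasts the Igf2 ranges overlapped, at 579 to 1570 CPM in dICR/dICR cells and 188 to 1460 CPM in WT cells. All 7 muscle lineage markers were above 1 CPM in every library, with a summed level of 2530 to 25200 CPM. The markers of adipocytes, endothelium, leukocytes and Schwann cells each summed to at most 8.42 CPM. Those of fibroblasts summed to 106 to 925 CPM, most of it Col3a1, at 92.6 to 888.5 CPM. Those of smooth muscle and pericytes summed to 82.4 to 4410 CPM, nearly all of it Acta2, at 80.5 to 4402 CPM. No listed marker was at 0 in every library. In such bulk samples, fewer cells of a type and less RNA per cell cannot be told apart. The Y-linked gene Ddx3y lay between 0.153 and 0.462 CPM in the shallow WT libraries and between 27.6 and 176 CPM in the deep ones. Depth set and sex makeup therefore cannot be told apart among the WT libraries. In the dICR/dICR libraries of both sets Ddx3y lay between 14.5 and 104 CPM.

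Promoter windows are shown for Myog and Myf5, the 2 muscle factors that changed in opposite directions in WT cells. Each window runs from 250 bases before to 50 bases after the gene start of the RefSeq annotation, on build GRCm38.p6, and is written 5′ to 3′ on the strand of the gene. Capitals mark E-boxes (CANNTG), a MEF3 motif (TCAGGTTTC) and matches to a loose MEF2 pattern (CTANNNNTA), searched on both strands with overlaps kept. N stands for any base, so a match to the MEF2 pattern need not be a MEF2 site.
Myog, chr1:134289754-134290053, plus strand: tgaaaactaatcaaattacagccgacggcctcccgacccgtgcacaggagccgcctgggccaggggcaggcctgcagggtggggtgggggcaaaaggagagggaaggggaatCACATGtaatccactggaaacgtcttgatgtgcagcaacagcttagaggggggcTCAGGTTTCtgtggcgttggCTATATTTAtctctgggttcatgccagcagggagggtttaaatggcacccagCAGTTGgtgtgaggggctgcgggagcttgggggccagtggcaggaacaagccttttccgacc
Myf5, chr10:107486085-107486384, minus strand: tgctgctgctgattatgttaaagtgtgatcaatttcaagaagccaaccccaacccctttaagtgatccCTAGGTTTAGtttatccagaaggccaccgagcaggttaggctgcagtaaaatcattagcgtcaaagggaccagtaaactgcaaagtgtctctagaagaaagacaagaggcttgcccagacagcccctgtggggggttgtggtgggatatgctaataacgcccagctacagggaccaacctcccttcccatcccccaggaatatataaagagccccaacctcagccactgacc
The Myog window held 2 E-boxes, CACATG at -138 to -133 and CAGTTG at -12 to -7 relative to the annotated start. It also held the MEF3 motif at -84 to -76 and a MEF2 core, CTATATTTA, at -64 to -56. The letters of these last motifs were chosen from sites known in the mouse Myog promoter, so their presence there is no finding. The Myf5 window held no E-box. It held 2 overlapping matches to the MEF2 pattern, CTAGGTTTA and TAGGTTTAG, between -182 and -173, from a single stretch read on opposite strands. G bases lie among their middle letters, so they are not read as MEF2 sites. The letters TATAAA stand after the annotated start in the Myf5 window, so that start may not be the main one, and the positions and the absence of an E-box hold for this window only. Among 27025 promoter windows of the same length, 72.1% held an E-box, 21% a match to the MEF2 pattern and 0.44% the MEF3 motif. Of the other factors, Tcf3 and Tcf12 had a matching window, with 1 E-box in each, and that of Tcf12 was CAGCTG, a form held by 16.1% of windows. The Tcf3 window also held a match to the MEF2 pattern, TAGTATTAG at -236 to -228.

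**Figure D1:**
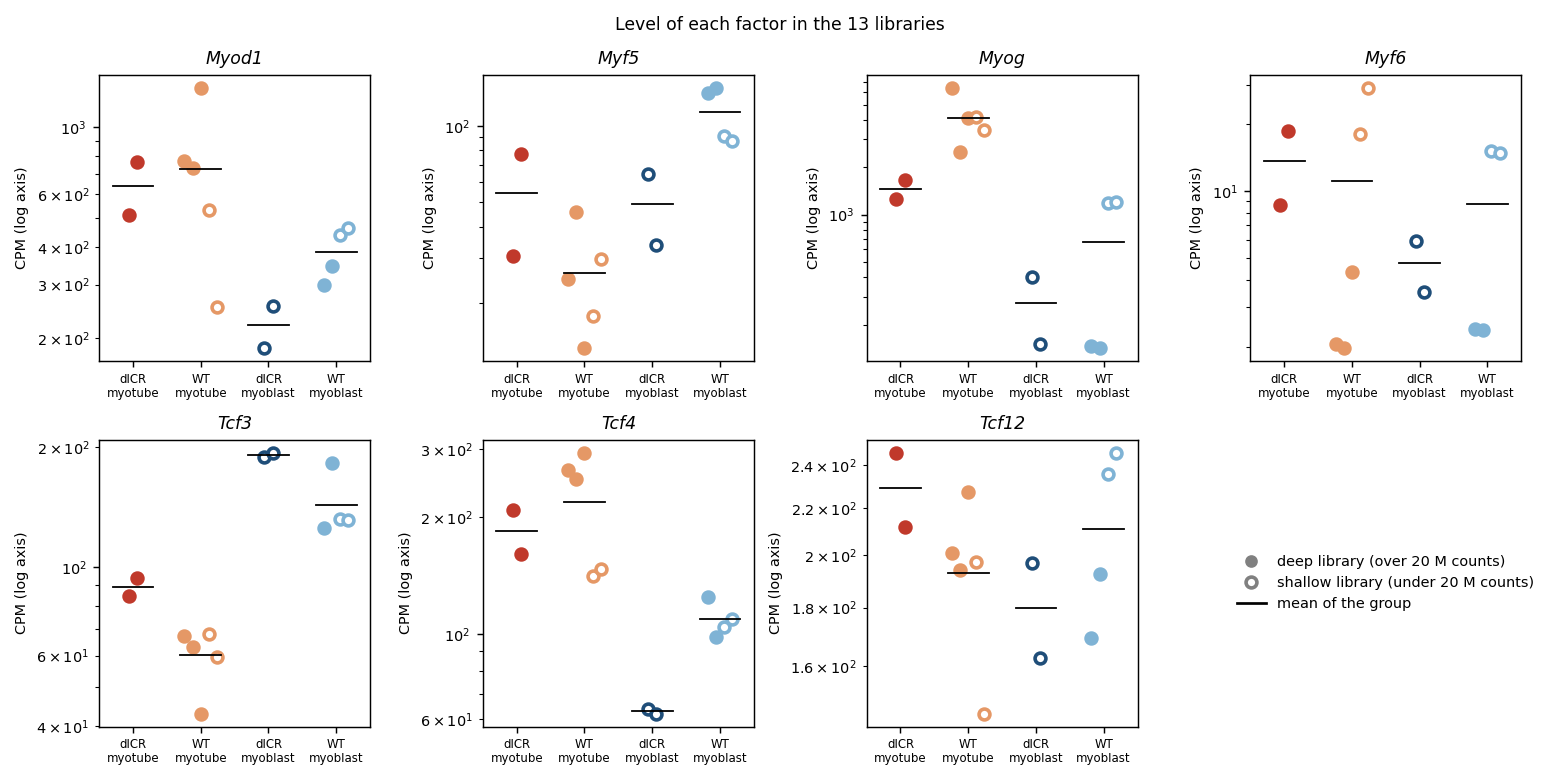
CPM of each gene in the 13 libraries on a log axis, by group, with filled points for deep and open points for shallow libraries and a line at the group mean. Myog in the 5 WT myotube libraries lies between 2497 and 6412 CPM, above both dICR/dICR myotube libraries at 1253 and 1669 CPM.

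In WT cells, differentiation was accompanied by more Myog and Tcf4 and less Myf5 and Tcf3, so that 4 of the 7 genes were called, 2 in each direction. Over all genes, the same test called 19.1%. The test was edgeR's quasi-likelihood test on the counts over all 13 libraries, with Benjamini-Hochberg adjustment over the 16537 genes and a threshold of 0.05. Myog rose 6.21-fold and Tcf4 2.02-fold in WT myotubes relative to WT myoblasts, whereas Myf5 fell 4.33-fold and Tcf3 fell 2.38-fold. Myod1, Myf6 and Tcf12 did not pass the test.

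Myf5 had 24.8, 45.5, 13.3, 17.9 and 29.7 CPM in the 5 WT myotube libraries, against 135, 141.5, 90.9 and 87.3 CPM in the 4 WT myoblast libraries. Every WT myotube library lay below every WT myoblast library. How many of all tested genes separated without overlap was not counted, here or in the comparisons below. The log2 fold change was -2.12 ± 0.39 (SE), with an adjusted p of 0.00404 in edgeR's quasi-likelihood test. The decrease was seen within each depth set, at -2.28 ± 0.54 in the deep libraries (adjusted p 0.0251, edgeR) and -1.89 ± 0.34 in the shallow ones (adjusted p 0.00744, edgeR).

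Myod1, the other determination factor, had 771, 728, 1349, 528 and 253 CPM in WT myotubes, against 298.5, 344.5, 438 and 462 CPM in WT myoblasts. WT myotube library 5 lay below all 4 WT myoblast libraries and the other 4 WT myotube libraries above them. The log2 fold change over all libraries was 0.91 ± 0.39, with an adjusted p of 0.126 in edgeR's test. Without WT myotube library 5 it was 1.14, with an adjusted p of 0.0337 in edgeR's test. Within the deep libraries Myod1 rose by 1.59 ± 0.36 (adjusted p 0.0214, edgeR), while within the shallow ones its change was -0.18 ± 0.34 (adjusted p 0.736, edgeR).

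Myog, the differentiation factor, had 6412, 2497, 4111, 4196 and 3435 CPM in WT myotubes, against 146, 141.5, 1179 and 1196 CPM in WT myoblasts. The groups did not overlap, but the WT myoblasts were of 2 kinds, with the 2 shallow libraries about as high as the lower dICR/dICR myotube library and the 2 deep ones far lower. The log2 fold change was 2.63 ± 0.69 (adjusted p 0.0205, edgeR). It was 4.94 ± 0.52 within the deep libraries (adjusted p 0.00203, edgeR) and 1.71 ± 0.42 within the shallow ones (adjusted p 0.025, edgeR). Whether these sizes differ between the sets was not tested. The same 2 shallow WT myoblast libraries had 65.4 and 72.9 CPM of Ckm, the muscle creatine kinase, against 2.65 and 2.08 CPM in the deep ones.

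Myf6, the factor of later muscle fibres, had 2.06, 1.97, 4.30, 18.0 and 29.1 CPM in WT myotubes, against 2.41, 2.37, 15.2 and 14.9 CPM in WT myoblasts. In both groups the shallow libraries were the high ones, and the groups overlapped. The log2 fold change was 0.34 ± 0.87, with an adjusted p of 0.833 in edgeR's test. Its counts were 27 to 780 per library, and in WT myotube libraries 4 and 5 those of Myf5, at 116 and 146, were about as low as those of Myf6, at 117 and 143.

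Among the E proteins, Tcf3, which encodes E2A, had 67.1, 63.1, 42.9, 67.9 and 59.5 CPM in WT myotubes, against 125, 183, 132 and 131 CPM in WT myoblasts. No library of one group reached the range of the other. The log2 fold change was -1.25 ± 0.18 (adjusted p 0.00132, edgeR), with -1.39 ± 0.27 in the deep libraries (adjusted p 0.0124, edgeR) and -1.02 ± 0.16 in the shallow ones (adjusted p 0.00371, edgeR). Tcf4, which encodes E2-2, went the other way, with 265, 251, 294, 141 and 147 CPM in WT myotubes, against 125, 97.8, 104 and 109 CPM in WT myoblasts. The groups did not overlap, and the deep WT myotubes were higher than the shallow ones. Its log2 fold change was 1.01 ± 0.24 (adjusted p 0.0147, edgeR). It was 1.31 ± 0.22 within the deep libraries (adjusted p 0.00878, edgeR) and did not pass the test within the shallow ones, at 0.45 ± 0.15 (adjusted p 0.0618, edgeR). Tcf12, which encodes HEB, had 201, 194, 227, 197 and 145 CPM in WT myotubes, against 169, 193, 235.5 and 246 CPM in WT myoblasts. These ranges overlapped, and its log2 fold change was -0.13 ± 0.19 (adjusted p 0.694, edgeR).

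Refitted on the deep libraries alone, the test called 5 of the 7 genes in WT cells, Myod1 among them, where it called 22.2% of all genes. On the shallow libraries alone it called 3 of the 7, Myf5, Myog and Tcf3, against 22.6% of all genes. A fit chosen after seeing the data gave each group a separate mean in each set over all 13 libraries. It called the same 5 genes in the deep set, where 29.1% of all genes were called, and Tcf3 alone in the shallow set, where 6.98% were called.

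**Figure D2:**
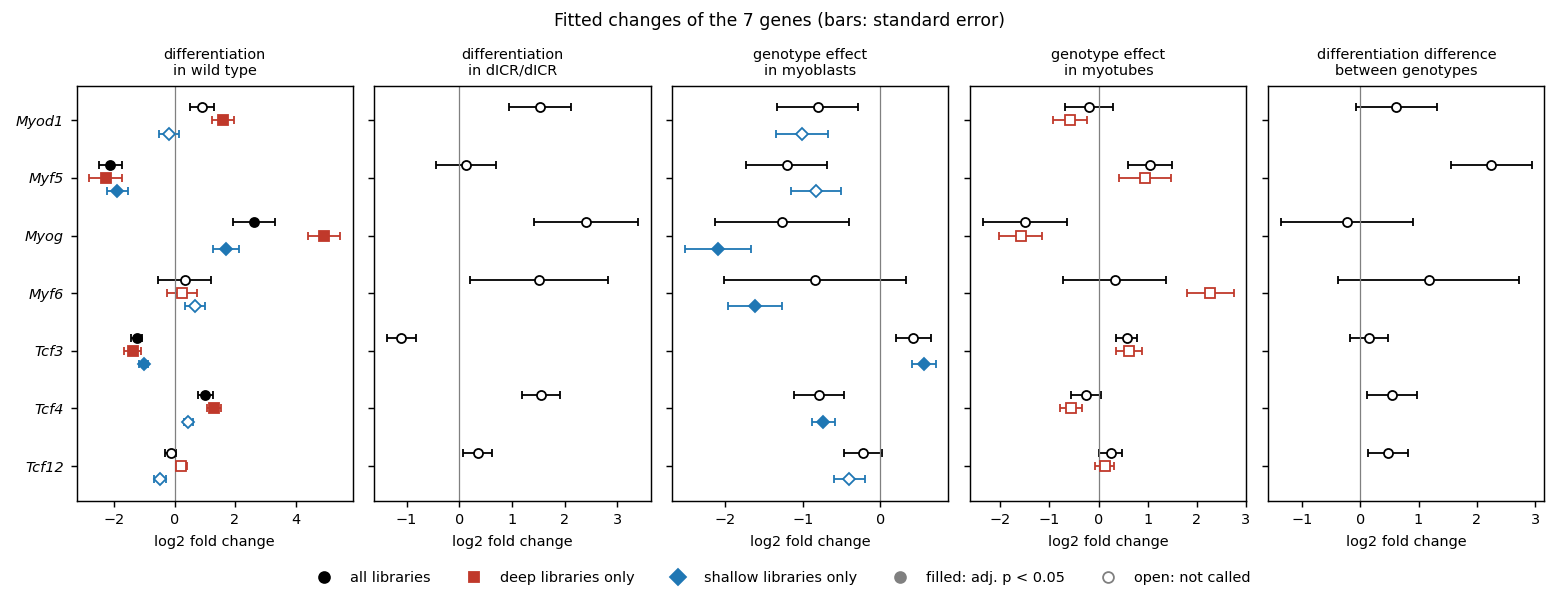
Log2 fold change of each gene in 5 comparisons, with bars of 1 SE, from fits over all libraries (black), the deep libraries (red) and the shallow libraries (blue). Filled symbols passed an adjusted p of 0.05 and open ones did not, and filled symbols appear in WT differentiation and in the shallow comparison of myoblasts.

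Levels per length were CPM per kilobase of exon, with gene lengths from a later annotation than the one behind the counts. By these levels, the order of the muscle factors differed among the myoblast libraries. WT myoblast libraries 3 and 4 and dICR/dICR myoblast library 1 had the same order as both dICR/dICR myotube libraries, Myog, Myod1, Myf5 and Myf6. Myog was the highest of the 4 in all 7 myotube libraries. Among myoblasts, Myog was the highest in dICR/dICR library 1 and WT libraries 3 and 4, and Myod1 in dICR/dICR library 2 and WT libraries 1 and 2. Of the 4 factors' summed level per kilobase, Myog made up a mean of 72.3% in dICR/dICR myotubes (70.7 to 74.0%, n = 2), 86.6% in WT myotubes (78.9 to 93.0%, n = 5), 52.9% in dICR/dICR myoblasts (39.2 to 66.6%, n = 2) and 50.7% in WT myoblasts (27.1 to 73.0%, n = 4). Myf5 made up 0.467% in WT myotubes (0.183 to 1.05%) and 11.8% in WT myoblasts (3.80 to 19.96%), with no overlap.

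The order of the E proteins per kilobase differed between the cell types in every library. Tcf3 was the highest in all 6 myoblast libraries and Tcf12 in all 7 myotube libraries, with either exon union or longest transcript as the length. Tcf3 made up a mean of 37.1% of the summed E-protein level in dICR/dICR myotubes (33.8 to 40.4%, n = 2), 29.96% in WT myotubes (19.5 to 36.4%, n = 5), 65.7% in dICR/dICR myoblasts (63.6 to 67.9%, n = 2) and 53.0% in WT myoblasts (48.0 to 61.5%, n = 4). Tcf4 was the lowest in every myoblast library, and its order against Tcf3 in myotubes depended on the library and on which length was used.

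**Figure D3:**
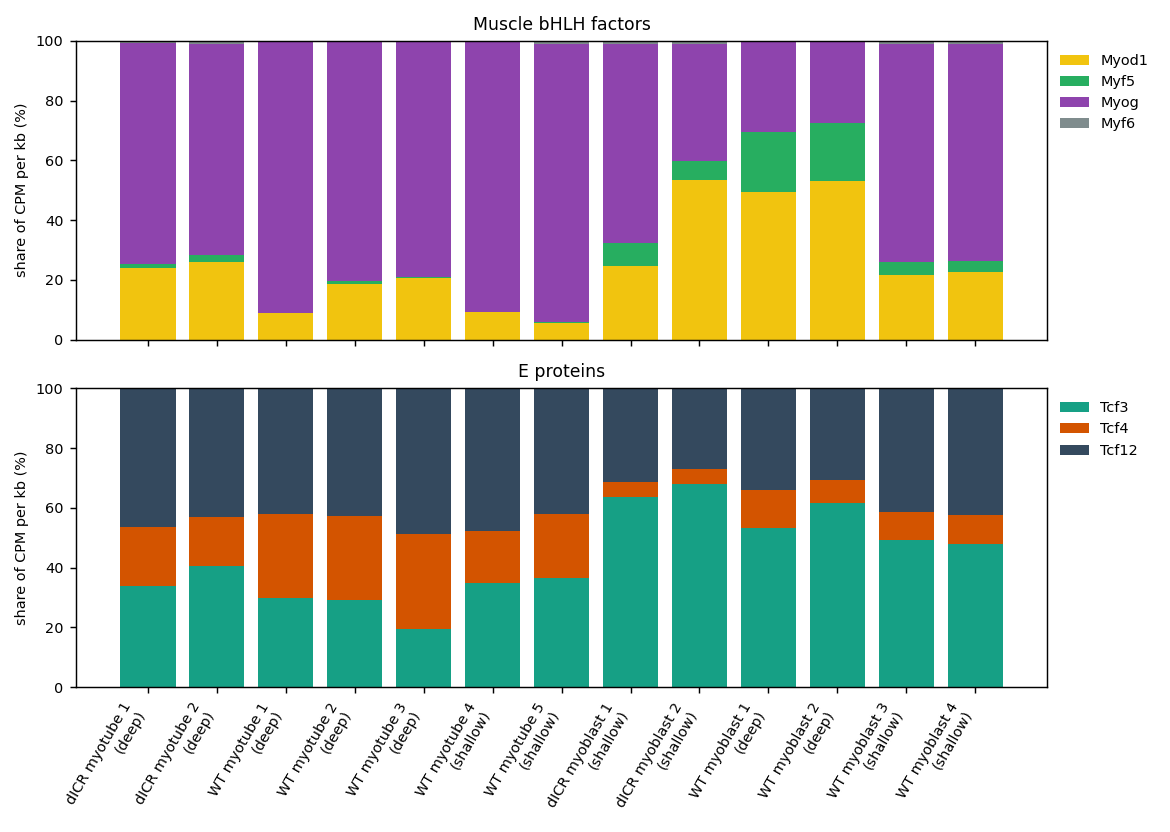
Share of the summed CPM per kilobase held by each of the 4 muscle bHLH factors (upper bars) and each of the 3 E proteins (lower bars) in every library. Myog holds the largest share in all myotube libraries, and Tcf3 the largest E-protein share in all myoblast libraries.

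Ratios of counts within a library do not depend on gene length when they are compared between groups. The log2 ratio of Myog to Myod1 averaged 2.64 ± 0.92 in WT myotubes (SD, n = 5) and 0.12 ± 1.48 in WT myoblasts (SD, n = 4), without overlap. The log2 ratio of Tcf3 to Tcf12 averaged -1.69 ± 0.42 in WT myotubes and -0.56 ± 0.39 in WT myoblasts, also without overlap. Both differences, and that of Myf5 to Myod1, gave a two-sided exact permutation p of 0.0159, the smallest that 5 against 4 libraries can give. After Benjamini-Hochberg adjustment over 20 ratio comparisons these were 0.106, so none of them passed (exact permutation test). For 2 libraries against 5, 4 or 2, the smallest exact p was 0.0952, 0.133 or 0.333, so no ratio comparison with dICR/dICR cells could pass.

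Genes that work with or against the muscle factors, and their targets, were read from 4 lists. Over all genes, 19.1% were called in WT differentiation. Of 18 tested bHLH inhibitors and competitors, 4 rose and 5 fell in WT myotubes, and the median log2 fold change was -0.04 for the list and 0.02 over all genes. All 4 Id genes fell in edgeR's test, Id1 by 1.80 ± 0.54, Id2 by 1.36 ± 0.28, Id3 by 2.60 ± 0.61 and Id4 by 1.91 ± 0.48 on the log2 scale (adjusted p 0.0378, 0.00763, 0.0134 and 0.0183). Snai2, which encodes a repressor that binds E-boxes, fell by 2.47 ± 0.60 (adjusted p 0.0155, edgeR). Those that rose were Zeb1, Bhlhe41, Snai1 and Bhlhe40, with log2 fold changes of 1.89 to 2.74.

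Of 33 upstream regulators and cofactors, 9 rose and 6 fell in WT myotubes, with a median of -0.09. Mef2c, a MADS-box partner of the muscle bHLH factors, had a log2 increase of 2.44 ± 0.44 (edgeR, adjusted p 0.00365). Tead4 and Rb1 rose by 2.36 ± 0.25 and 1.94 ± 0.38. Pax7, a marker of satellite cells and of myoblasts, fell by 1.83 ± 0.36 (adjusted p 0.00572, edgeR), and Suv39h1 and Eya1 also fell.

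Of 30 downstream muscle genes, 20 rose and none fell, the edgeR test leaving 10 not called, and the median was 1.6. Among those that rose, Actc1 (cardiac actin, made early in muscle differentiation) changed by 3.59 ± 0.61, Cav3 by 2.64 ± 0.47, Mybph by 2.52 ± 0.42 and Myl1 by 1.91 ± 0.31 on the log2 scale. Of 14 cell-cycle genes, 9 fell and none rose, with a median of -2.29. Ccnd1, which encodes cyclin D1, fell by 4.39 ± 0.36 (adjusted p 0.000141, edgeR), and Ccne1, Mcm2 and Mcm7 fell by 2.10, 2.17 and 1.85. Markers of smooth muscle and pericytes summed to 2152 to 4406 CPM in WT myotubes and 82.4 to 395 CPM in WT myoblasts. Nearly all of this was the actin gene Acta2, also made by differentiating muscle cells, at 2116 to 4402 and 80.5 to 380 CPM. Of the 4 markers in that list, 1 rose and 1 fell. The part of these markers in the changes of the 7 genes was not tested.

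**Figure D4:**
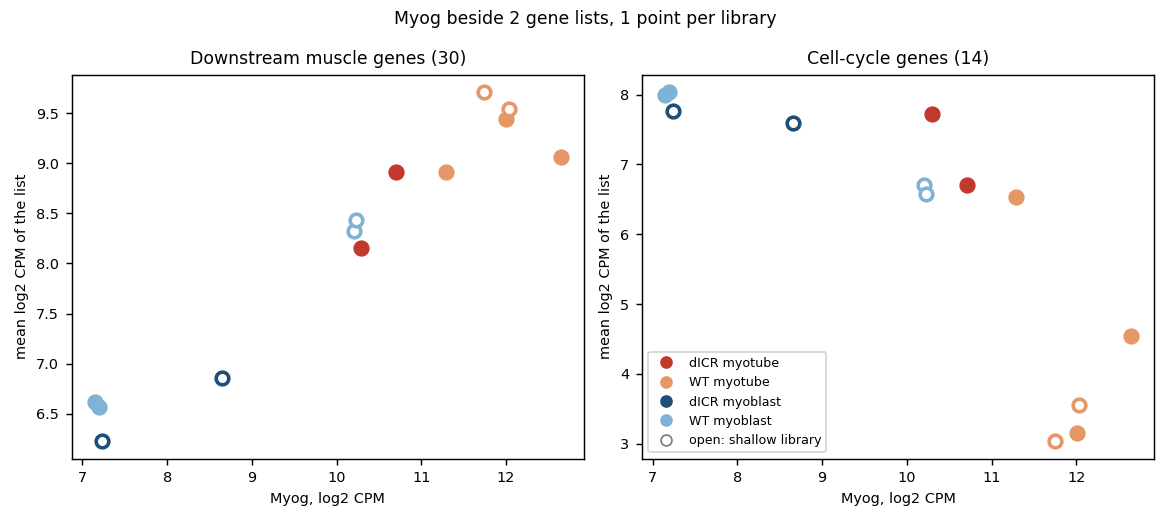
Mean log2 CPM of 30 downstream muscle genes (left) and of 14 cell-cycle genes (right) against the log2 CPM of Myog, with 1 point per library and open points for shallow libraries. The 2 shallow WT myoblast libraries lie at 8.33 and 8.43 in the downstream genes, above dICR/dICR myotube library 1 at 8.15 and below the other 6 myotube libraries.

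In dICR/dICR cells, none of the 7 genes passed the test of myotubes against myoblasts over all libraries, where edgeR called 24 of 16537 genes, or 0.145%, and 3172 genes had an unadjusted p below 0.05. The 2 groups lie in different depth sets, so depth and cell type cannot be told apart here and no comparison within a set exists. Tcf4 had 209 and 160.5 CPM in dICR/dICR myotubes, against 64.0 and 62.2 CPM in dICR/dICR myoblasts, and its log2 fold change was 1.55 ± 0.36 (adjusted p 0.0767, edgeR). Tcf3 had 84.9 and 93.9 CPM in dICR/dICR myotubes, against 189 and 193.5 CPM in dICR/dICR myoblasts, with -1.10 ± 0.27 (adjusted p 0.0855, edgeR). Neither pair of ranges overlapped.

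Myog had 1253 and 1669 CPM in dICR/dICR myotubes, against 402 and 150.5 CPM in dICR/dICR myoblasts, and the change of 2.40 ± 0.99 did not pass (adjusted p 0.227, edgeR). Myod1 had 509 and 765 CPM in dICR/dICR myotubes, against 185 and 255 CPM in dICR/dICR myoblasts, a change of 1.53 ± 0.59 (adjusted p 0.209, edgeR). For both factors the myotube libraries lay above the myoblast libraries.

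Myf5 had 30.6 and 77.7 CPM in dICR/dICR myotubes and 64.5 and 34.0 CPM in dICR/dICR myoblasts. The groups overlapped, and the change was 0.14 ± 0.57 (adjusted p 0.921, edgeR). Myf6 had 8.68 and 18.5 CPM in dICR/dICR myotubes, against 5.94 and 3.52 CPM in dICR/dICR myoblasts, a change of 1.52 ± 1.31 (adjusted p 0.539, edgeR). Tcf12 had 246 and 212 CPM in dICR/dICR myotubes and 197 and 163 CPM in dICR/dICR myoblasts, a change of 0.35 ± 0.28 (adjusted p 0.503, edgeR).

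Other fits gave other calls. DESeq2 called 2 of the 7, Tcf3 and Tcf4, in the directions given above, where it called 7.36% of all genes. On the 4 dICR/dICR libraries alone, edgeR called 4 of the 7, Myod1, Myog and Tcf4 higher and Tcf3 lower, where it called 14.2% of all genes. Limma voom called 0 of the 7. With the depth set as a term, edgeR called Myf6 higher and Tcf3 lower, where 7.63% of all genes were called. That term takes its size from the WT libraries, whose depth sets also differed in Ddx3y. Of the 30 downstream muscle genes 1 was called over all libraries, Myl1, which rose by 3.73 ± 0.49 (adjusted p 0.0151, edgeR), and the list's median was 1.99. Of the 14 cell-cycle genes 1 was called, Ccnd1, which fell by 3.44 ± 0.54 (adjusted p 0.0351, edgeR). The other 13 did not pass, 5 of the 14 had positive values, and the list's median was -0.46. No inhibitor was called, and Id1 to Id4 had log2 fold changes between -2.16 and -0.79.

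The test of whether differentiation changed the 7 genes differently in dICR/dICR and WT cells called none, and 0% of all genes, although 1643 genes had an unadjusted p below 0.05 in edgeR's test. DESeq2 called 62 genes and limma voom 0, in each case none of the 7. The largest difference was that of Myf5, whose log2 change was 2.25 ± 0.69 higher in dICR/dICR cells (unadjusted p 0.00686, adjusted p 0.495, edgeR). The differences of Tcf3, Tcf4 and Tcf12 were 0.15 ± 0.32, 0.54 ± 0.43 and 0.48 ± 0.34, and that of Myog was -0.23 ± 1.13.

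In myotubes, each dICR/dICR library had less Myog than each WT library, but none of the 7 genes passed the test over all libraries, where edgeR called 92 genes, or 0.556%, and 2773 had an unadjusted p below 0.05. DESeq2, which called 1079 genes, and limma voom, which called 440, also called none of the 7. Myog had 1253 and 1669 CPM in dICR/dICR myotubes, against 2497 to 6412 CPM in WT myotubes, and the log2 fold change was -1.50 ± 0.86 (adjusted p 0.388, edgeR). Within the deep libraries it was -1.58 ± 0.44 (adjusted p 0.148, edgeR), where 0.709% of all genes and none of the 7 were called.

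Myf5 averaged 54.2 ± 33.2 CPM in dICR/dICR myotubes (SD, n = 2) and 26.2 ± 12.5 CPM in WT myotubes (SD, n = 5), and dICR/dICR library 1 lay within the WT range. Its log2 fold change was 1.04 ± 0.45 (adjusted p 0.275, edgeR). Tcf3 had 84.9 and 93.9 CPM in dICR/dICR myotubes, above the WT range of 42.9 to 67.9 CPM, with 0.57 ± 0.22 (adjusted p 0.224, edgeR). Myod1, Tcf4 and Tcf12 changed by -0.19 ± 0.49, -0.25 ± 0.30 and 0.24 ± 0.23 without passing.

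The Myf6 comparison in myotubes depended on which WT libraries were used. Myf6 had 8.68 and 18.5 CPM in the dICR/dICR myotubes, against 2.06, 1.97 and 4.30 CPM in the 3 deep WT myotubes and 18.0 and 29.1 CPM in the 2 shallow ones. Among deep libraries alone the dICR/dICR values lay above the WT values, the log2 fold change there being 2.27 ± 0.48 (adjusted p 0.0872, edgeR), whereas over all libraries it was 0.33 ± 1.05 (adjusted p 0.893, edgeR). In the fit with a separate mean per group and set, which called 3.63% of all genes in deep myotubes, it passed, at 2.29 ± 0.43 (adjusted p 0.0179, edgeR).

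Beside these values, cell-cycle genes summed to 1601 and 3297 CPM in the dICR/dICR myotubes and to 182 to 1554 CPM in the WT myotubes. The highest of these was WT myotube library 2, with the other 4 between 182 and 401 CPM, and the same library had the lowest Myog of the WT myotubes, 2497 CPM. Without it the log2 fold change of Myog was -1.66 (adjusted p 0.31, edgeR). All 14 had a positive log2 fold change, with a median of 2.41, and 1 passed the edgeR test, Ccne1, which encodes cyclin E1, at 2.24 ± 0.40 (adjusted p 0.035). The downstream muscle genes summed to 18010 and 35350 CPM in the dICR/dICR myotubes, below the WT range of 39580 to 67650 CPM. Of these 30 genes, 27 had a negative log2 fold change, with a median of -0.90 against -0.06 over all genes, and edgeR called none. Fibroblast markers summed to 106 and 243 CPM in dICR/dICR myotubes and to 204.5 to 925 CPM in WT myotubes. Among these WT sums, library 2 again was the highest and the other 4 lay between 204.5 and 346.5 CPM. Most of each sum was Col3a1, at 185 and 92.6 CPM in dICR/dICR myotubes and 174 to 888.5 CPM in WT myotubes. Ly6a, of the same list, went the other way, at 46.25 and 11 CPM against 0 to 7.2 CPM. Smooth muscle and pericyte markers summed to 1020 and 2277 CPM in dICR/dICR myotubes and to 2152 to 4406 CPM in WT myotubes. Nearly all of this was Acta2, at 1020 and 2276 CPM in dICR/dICR myotubes and 2116 to 4402 CPM in WT myotubes. The part of these lists' levels in the Myog values was not tested.

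In myoblasts, none of the 7 genes passed over all libraries, where edgeR called 5 genes, or 0.0302%, 2009 had an unadjusted p below 0.05, and DESeq2 and limma voom called none of the 7. Since both dICR/dICR myoblast libraries were shallow, they were also compared with the 2 shallow WT myoblast libraries alone. In that comparison edgeR called 4 of the 7 genes, with Myog, Myf6 and Tcf4 lower and Tcf3 higher in dICR/dICR cells, against 21.6% of all genes. The 2 shallow WT myoblast libraries had a chi-square per degree of freedom of 4.7. That measure grows with depth, and the other shallow pairs were at 21.9 (WT myotubes) and 34.3 (dICR/dICR myoblasts). The small spread of the 2 shallow WT myoblast libraries enters the p-values of this comparison, which may therefore be too low for a difference between genotypes.

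Myog had 402 and 150.5 CPM in dICR/dICR myoblasts, against 1179 and 1196 CPM in the shallow WT myoblasts, with a change of -2.09 ± 0.43 on the log2 scale (adjusted p 0.0144, edgeR). The deep WT myoblasts, at 146 and 141.5 CPM, lay below both dICR/dICR libraries, so the direction rests on which WT libraries are used. Over all libraries the log2 fold change was -1.27 ± 0.86 (adjusted p 0.546, edgeR). Myf6 followed the same pattern, with 5.94 and 3.52 CPM in dICR/dICR myoblasts, 15.2 and 14.9 CPM in shallow WT myoblasts and 2.41 and 2.37 CPM in deep ones. Its log2 fold change among shallow libraries was -1.62 ± 0.35 (adjusted p 0.0172, edgeR).

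For both E proteins called here, the dICR/dICR libraries lay on 1 side of all 4 WT libraries. Such a separation carries little weight, since the smallest p of an exact permutation test of 2 against 4 libraries is 0.133. Tcf4 had 64.0 and 62.2 CPM in dICR/dICR myoblasts, below all 4 WT myoblast libraries at 97.8 to 125 CPM. Its log2 fold change was -0.74 ± 0.15 among shallow libraries (adjusted p 0.0136, edgeR) and -0.79 ± 0.32 over all libraries (adjusted p 0.367, edgeR). Tcf3 had 189 and 193.5 CPM in dICR/dICR myoblasts, above all 4 WT libraries at 125 to 183 CPM. It was 0.56 ± 0.15 higher on the log2 scale among shallow libraries (adjusted p 0.0354, edgeR) and 0.42 ± 0.23 over all libraries (adjusted p 0.461, edgeR). Myod1 and Myf5 had negative changes among shallow libraries that did not pass, -1.01 ± 0.34 and -0.83 ± 0.32 (adjusted p 0.0705 and 0.103, edgeR), and that of Tcf12 was -0.40 ± 0.20 (adjusted p 0.178, edgeR). In the fit with separate means, 1 of the 7 passed among shallow myoblasts, Myog at -2.10 ± 0.49 (adjusted p 0.0333, edgeR), against 5.25% of all genes.

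Other genes moved with these values in the shallow myoblasts. Of the 30 downstream muscle genes, 28 fell and none rose in dICR/dICR cells, with a median of -1.77 against 0.01 over all genes. Tnni2, Chrng, Jsrp1 and Musk fell by 2.64, 2.50, 1.56 and 1.55 on the log2 scale. Of 14 cell-cycle genes, 12 rose and none fell, with Ccna2, Ccnb1, Cdk1 and Top2a up by 1.28 to 1.70. Both results rest on the shallow WT libraries. The downstream genes summed to 8051 and 4755 CPM in dICR/dICR myoblasts, against 20180 and 21310 CPM in shallow and 6226 and 6462 CPM in deep WT myoblasts. The cell-cycle genes summed to 4270 and 4192 CPM in dICR/dICR myoblasts, above the 2645 and 2377 CPM of shallow and below the 5727 and 5233 CPM of deep WT myoblasts. Over all libraries edgeR called 0 genes of either list, with medians of -1.16 for the downstream genes and 0.33 for the cell-cycle genes, and Ccnb1 was at -1.26 ± 1.65. Among shallow libraries, of 15 tested inhibitors 1 rose, Mdfic, and 3 fell, Hey1, Hes1 and Zeb1, a share near that of all genes. Of 32 tested cofactors 3 rose, Ezh2, Sirt1 and Prmt5, and 8 fell, among them Vgll2, Hes6, Mef2a and Cdon. The Y-linked gene Ddx3y had 14.5 and 63.1 CPM in the dICR/dICR myoblasts and 0.247 and 0.153 CPM in the shallow WT myoblasts, so sex makeup and genotype cannot be told apart in this comparison.

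The patterns of the 4 muscle factors across all 13 libraries were compared with those of all other tested genes by Pearson's r of log2 CPM, as a description, since the libraries share groups and depth sets. The genes most like Myog were Nmrk2 (r = 0.99), Smad3 (0.989) and Fndc5 (0.987), and with the mean of each depth set removed Sntb1 (0.997), Smad3 (0.993) and Gatm (0.992). Those most like Myod1 were Eps15l1 (0.945), Zfp319 (0.924) and Prkx (0.92). Those most like Myf5 were Mfsd6 (0.927), Irs1 (0.923) and Slc37a3 (0.921). Those most like Myf6 were Ampd1 (0.957), Chrna10 (0.954) and Actn3 (0.95), of which Ampd1 and Actn3 are genes of mature fast muscle. Among the 7 themselves, Tcf3 and Tcf4 had r = -0.896, Myog and Tcf3 -0.864, and Myod1 and Tcf4 0.841.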

How the data were processed

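Values are the authors' raw counts of reads per gene, deposited without scaling. TopHat2, HTSeq and the mm9 build are named in the submitters' processing notes. Their versions, the gene annotation and strandedness were not given in the sources used here. Columns were matched to samples by title, and 0 columns were left over. The series text gives fewer replicates per group than the table holds for WT, and all 13 libraries were used as labelled. Chi-square per degree of freedom between replicate libraries was 4.7 to 368.8, so no pair agreed within counting noise. This does not tell separate samples from repeated preparations of the same RNA. The lowest value, 4.7, was that of the 2 shallow WT myoblast libraries. At the same relative spread the value is lower in shallow pairs, and the other shallow pairs were at 21.9 (WT myotubes) and 34.3 (dICR/dICR myoblasts). Myog and Myf5 have the same count, 7283, in WT myoblast library 2 of the deposited table.

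The row named Tcf3 was taken as E2A, and that named Tcf4 as E2-2, since Tcf7l1 and Tcf7l2 have rows of their own. Genes were kept with filterByExpr by group (minimum count 10, total 15), scaled by TMM and tested with edgeR 4.0.16 (quasi-likelihood, all groups in 1 fit, R 4.3.3). Among the muscle factors and E proteins, Myf6 has the lowest count, 27 in dICR/dICR myoblast library 2. Counts alone did not set the precision. In WT differentiation over all libraries, Myog had an SE of 0.69 and Tcf3 an SE of 0.18 (edgeR). Yet Myog averaged 4130 CPM in WT myotubes and 666 CPM in WT myoblasts, and Tcf3 60.1 and 143 CPM. SE is the log2 fold change over the square root of F. CPM uses TMM-scaled totals, and log2 CPM a prior count of 2. Ratios add 0.5 to each count and were tested by exact permutation, doubling the smaller tail, with code checked against scipy 1.17.1. Lengths per gene come from GENCODE on a later build. Alternatives were DESeq2 1.42.0, limma 3.58.1 voom, other scalings, no filter, a replicate block, depth set terms, fits within sets and each library left out. The test was checked on simulated counts with changes in WT myotubes only, a fixed spread and no difference between depth sets beyond library size. That check does not cover the comparisons with dICR/dICR cells.

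The 7 genes and the lists were chosen with earlier results of these data known. All 7 genes were named in every comparison, along with the called genes of each list with the smallest adjusted p, at most 4 per direction, Id1 to Id4, Pax7 and Mef2c, and the 3 genes most like each muscle factor. Some genes that this rule names are not reported here. Ckm, H19, Igf2, Ddx3y, Acta2, Col3a1 and Ly6a were named after their values were seen. The replicate numbers were checked for pairing by the correlation of libraries' deviations from their group means. It was over 0.1 in 5 of 14 same-numbered and 14 of 46 other-numbered pairs. Among WT libraries its sign followed the depth sets, so the check could neither show nor exclude pairing. The numbers were not taken to pair samples.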

Additional observations from a re-analysis of the deposited data

Results flagged for a closer look

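Among the 4 WT myoblast libraries, the Tcf3 level of library 2, 183 CPM, stood apart from the other 3, which lay between 125 and 132 CPM. The gap was 0.89 of the group's range. Of 14 groups checked, chance flags about 1 in 20.

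The genotype effect on Myf6 differed between cell types when each was taken within its own depth set. The log2 fold change of dICR/dICR against WT was 2.29 ± 0.43 in deep myotubes and -1.65 ± 0.50 in shallow myoblasts. The difference was 3.94 ± 0.66, with an adjusted p of 0.0443 in an edgeR fit chosen after seeing the data, which called 0.181% of all genes. Over all libraries the same difference was 1.17 ± 1.56 (adjusted p 0.792, edgeR). Myf6 was high in the shallow libraries of both WT groups, and the part of depth set, platform and sex makeup in this difference was not tested.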

How the results depend on the processing

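Of 833 recomputed values of single genes, 780 kept their direction and their side of the threshold, 29 turned round, 20 came to pass and 4 no longer passed. In WT differentiation, over 26 settings, the log2 fold change was -2.40 to -1.89 for Myf5, 1.68 to 4.94 for Myog, -1.51 to -1.02 for Tcf3 and 0.43 to 1.31 for Tcf4. Tcf3 passed in each of them, Myf5 and Myog in all but the shallow set with separate means (adjusted p 0.0645 and 0.0559, edgeR), and Tcf4 in all but the 2 shallow settings (adjusted p 0.0618 and 0.215, edgeR). With separate means, 1 member passed in the shallow set. Members passing in WT differentiation numbered 4 to 5 with 1 library left out, the fifth being Myod1 without WT myotube library 5. All genes called in WT differentiation numbered 3158, against 5267 with a depth set term, 4804 and 1154 with separate means in the deep and shallow sets, and 1769 to 3574 with 1 library left out (lowest without WT myoblast library 2).

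In dICR/dICR differentiation the members passing numbered 2 in DESeq2, 2 with the depth set as a term and 4 with only the groups compared. All genes called numbered 24, and 41 without the count filter, 1163 in DESeq2, 98 in limma voom, 1262 with the depth set as a term, 2002 with only the groups compared and 0 to 78 with 1 library left out. In myoblasts the members passing numbered 4 within the shallow set and 1 with separate means. All genes called numbered 5, and 3 with RLE size factors, 1 without the count filter, 443 in DESeq2, 9 in limma voom, 333 with the depth set as a term, 2717 within the shallow set, 868 with separate means, 0 with only the groups compared and 0 to 6 with 1 library left out. In myotubes 1 member, Myf6, passed with the depth set as a term and with separate means. All genes called numbered 92, and 1079 in DESeq2, 440 in limma voom, 425 with the depth set as a term, 601 with separate means, 1 with only the groups compared and 1 to 919 with 1 library left out (highest without WT myotube library 2, lowest without dICR/dICR myotube library 1). For the difference between genotypes, 1 member, Myf6, passed with separate means, and all genes called numbered 62 in DESeq2, 16 with the depth set as a term and 30 with separate means.

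The replicate numbers were not shown to pair the libraries. A fit with the replicate number as a block called 3063 genes and 5 members in WT differentiation, adding Myod1 at 1.08, and 100, 0, 3 and 0 genes, with 0 members, in dICR/dICR differentiation, myoblasts, myotubes and the difference. With both the block and the depth set, 0, 0 and 19 genes were called in dICR/dICR differentiation, myoblasts and myotubes. Changes that turned round under the block were none that had passed: Myf6 was -0.50 in WT differentiation and 0.88 in myoblasts, and Myf5 was -0.004 in dICR/dICR differentiation. With block and depth set, Myf6 was -0.071 in WT differentiation, Tcf3 -0.11 in myoblasts, and Myod1 -0.10 and Myog 0.82 in the difference.

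Other changes of direction also concerned values that had not passed. In WT differentiation, Myod1 was -0.18 within the shallow set and -0.20 with separate means, and Tcf12 was 0.23 and 0.20 in the deep set. Myf5 in dICR/dICR differentiation was -0.29 with the depth set as a term and -0.15 by library size alone. In limma voom, Myf6 was 0.27 in myoblasts and Myod1 0.036 in myotubes. In the difference, Myog was 0.35 with the depth set as a term and 0.53 with separate means, and Tcf3 was -0.025 with RLE size factors and -0.021 in DESeq2. Within the shallow myoblasts, the log2 ratios to Myod1 differed by -1.22 for Myog, 0.12 for Myf5 and -0.65 for Myf6, and that of Myf6 by 0.91 in WT differentiation.

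With 1 library left out, values that changed direction ranged, in dICR/dICR differentiation, over -0.69 to 0.67 for Myf5 and -0.67 to 0.54 for the Myf6 to Myod1 ratio, and in WT differentiation over -0.42 to 0.77 for Myf6. In myotubes they ranged over -0.51 to 0.14 for Myod1 and -0.32 to 1.07 for Myf6, and in the difference over -0.77 to 0.65 for Myog and -0.026 to 0.22 for Tcf3. In myoblasts the log2 ratios to Myod1 ranged over -0.88 to 1.00 for Myog, -1.13 to 0.26 for Myf5 and -0.17 to 1.03 for Myf6. The causes were not tested. Myf6 had the lowest count of the 7 genes, 27.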
